A study of Homo sapiens with 12 samples.

Results

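Of the 14438 genes counted by RNA-Seq in HEK293T lines expressing EZH2 variants, 7 genes lowered by gain-of-function (GOF) EZH2 are described here, namely STAC, CCDC68, SVEP1, ARFGEF3, CAMK4, AFAP1L1 and AARD. They were chosen by their low RNA in the lines with a GOF mutant against the line with wild-type EZH2, measured in these same libraries. The GOF values below are therefore a description and carry no test. The comparisons of the loss-of-function (LOF) mutant with EZH2 WT and of the GOF mutants with each other are tested. Both share libraries with the choice. All 7 were counted in every sample and none was lost to the filter on genes at 0, which left 14263 genes. Ranks and shares of all genes below are over these 14263, so genes without a count in A677G or in LOF are not among them.

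HEK293T is an embryonic human kidney line, here infected with lentivirus to carry 1 EZH2 construct per line, namely EZH2 WT, EZH2 Y641F, EZH2 A677G or EZH2 H689A/F667I. The lines are called WT, Y641F, A677G and LOF from here on. The study, which calls its replicates biological, treats Y641F and A677G as GOF mutants and H689A/F667I as the LOF mutant. Each of the 4 lines has 3 replicates, all grown in the same medium. The WT line also carries an added EZH2, so that it is a reference for the mutation. No line here is without an EZH2 construct, so the effect of the construct itself is not measured. Per the study's methods, infected cells were selected with blasticidin with the aim of monoclonal populations, so the mutation and the clone or line that carries it cannot be told apart. No source used here says that the cells' own EZH2 was removed, nor that replicates came from separate infections, so p-values measure the spread between cultures or preparations of 1 line.

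EZH2 is the catalytic subunit of Polycomb repressive complex 2 (PRC2), which places methyl groups on lysine 27 of histone H3. The trimethylated form marks genes that are held at low expression, often at starts rich in CpG dinucleotides. Y641F and A677G alter the active site so that the enzyme places the last methyl group more readily, and such changes recur in B-cell lymphoma. The genes described here have no common pathway. STAC and CAMK4 act in calcium signalling, ARFGEF3 belongs to a family of vesicle traffic factors, AFAP1L1 binds the actin cytoskeleton, CCDC68 sits on the centriole, SVEP1 is secreted into the matrix, and AARD is known mainly by its sequence.

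The DNA just before the start is printed for the 5 members in the RefSeq promoter table of build GRCh38.p14. CpG-rich starts are where PRC2 is known to act, and whether it acts at these genes was not tested here. Each run is given 5′ to 3′ on the gene's strand, ends within 3 bases of the start of the main transcript, and holds no annotated exon. Capitals mark CpG dinucleotides.
STAC: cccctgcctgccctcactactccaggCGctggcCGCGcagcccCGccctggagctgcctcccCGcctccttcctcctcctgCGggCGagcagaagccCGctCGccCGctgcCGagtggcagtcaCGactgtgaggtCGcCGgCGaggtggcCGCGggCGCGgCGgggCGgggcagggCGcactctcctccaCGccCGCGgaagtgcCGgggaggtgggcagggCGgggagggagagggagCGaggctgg
CCDC68: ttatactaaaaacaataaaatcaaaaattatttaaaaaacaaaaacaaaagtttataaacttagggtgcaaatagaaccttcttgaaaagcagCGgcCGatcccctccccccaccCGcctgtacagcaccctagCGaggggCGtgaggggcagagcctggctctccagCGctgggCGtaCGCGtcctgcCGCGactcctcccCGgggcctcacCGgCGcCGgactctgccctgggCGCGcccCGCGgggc
ARFGEF3: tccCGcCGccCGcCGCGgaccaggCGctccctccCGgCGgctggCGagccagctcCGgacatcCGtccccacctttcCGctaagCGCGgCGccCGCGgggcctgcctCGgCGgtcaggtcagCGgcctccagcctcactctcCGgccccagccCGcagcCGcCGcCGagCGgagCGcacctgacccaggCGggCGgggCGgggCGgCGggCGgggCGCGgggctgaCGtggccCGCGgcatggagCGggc
CAMK4: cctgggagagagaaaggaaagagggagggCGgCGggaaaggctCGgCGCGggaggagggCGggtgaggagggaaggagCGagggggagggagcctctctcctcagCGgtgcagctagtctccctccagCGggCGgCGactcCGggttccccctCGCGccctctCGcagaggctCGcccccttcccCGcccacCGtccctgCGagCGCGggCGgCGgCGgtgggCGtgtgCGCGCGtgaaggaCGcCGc
AFAP1L1: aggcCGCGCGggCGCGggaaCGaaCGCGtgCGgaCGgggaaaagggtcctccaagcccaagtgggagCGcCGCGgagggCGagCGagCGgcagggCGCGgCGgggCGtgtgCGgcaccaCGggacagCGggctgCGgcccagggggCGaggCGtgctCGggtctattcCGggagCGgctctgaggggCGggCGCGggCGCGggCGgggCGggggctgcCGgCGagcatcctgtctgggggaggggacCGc
The STAC run is chr3:36380254-36380502 on the plus strand and holds 28 CpGs in 249 bases. The CCDC68 run is chr18:54959462-54959711 on the minus strand, with 19 CpGs in 250 bases, and its far end is a stretch rich in A and T without any. That of ARFGEF3 is chr6:138161689-138161938 on the plus strand and has 39 CpGs in 250 bases. CAMK4 is represented by chr5:111224134-111224381, plus strand, with 30 CpGs in 248 bases, upstream of the main transcript but inside the span of longer ones. The AFAP1L1 run, chr5:149271609-149271858 on the plus strand, has 39 CpGs in 250 bases.

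EZH2 itself was checked first, since every line carries an added copy. Its level in CPM (counts divided by the library's TMM-adjusted size, on a common scale) was 157, 163 and 154 in the WT replicates, 228, 209 and 217 in Y641F, 174, 165 and 182 in A677G, and 208, 210 and 206 in the LOF line. All mutant lines lay above WT, and the lines ranked Y641F, LOF, A677G and WT. EZH2 was called higher in all 3 mutants by edgeR's quasi-likelihood test, by a log2 fold change of 0.46 (SE 0.0399, adjusted p = 1.57e-10) in Y641F, 0.13 (SE 0.0401, adjusted p = 0.0294) in A677G and 0.40 (SE 0.0400, adjusted p = 1.15e-07) in LOF. Y641F and LOF overlapped, at a difference of 0.07 with a 95% confidence interval of -0.01 to 0.15. Gene counts do not tell the mutant from the wild-type transcript, so they show the amount of EZH2 RNA and not which allele it came from.

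Libraries held between 32137700 and 44562413 counts. Replicate 1 of Y641F stood apart from its line on the leading principal component of log2 CPM (5.60 against 17.7 and 17.1), and values without it are given with the results. Of 8 genes known from HEK293 cells, all were in the table. Their summed CPM was 633 to 659 in WT, 488 to 538 in Y641F, 456 to 495 in A677G and 583 to 588 in LOF. The sum was thus lowest in the GOF lines, and it was also lower in LOF than in WT. A sum can rest on a few abundant genes, and the part of these genes in the results was not tested. The table held 2 of 8 mature nephron markers, LRP2 and CUBN. Their summed CPM was 16.9 to 22.9 in the GOF and 22.4 to 28.2 in the other samples. Of 4 endothelial markers it held 1, KDR, at 0.105 to 0.428 and 0.497 to 0.784. Of 6 fibroblast markers it held 4, COL1A1, LUM, PDGFRA and PDGFRB, summing to 9.34 to 15.8 over all samples. The other markers of these lists had no row, nor had PTPRC, MS4A1, CD3E, ITGAM and CD34 of the blood cell list. Each of the nephron, endothelial and fibroblast lists thus had markers with a row and markers without, and which cell types were present was not tested. In bulk RNA, fewer cells that express a gene and less of its RNA per cell cannot be told apart.

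**Figure D1:**
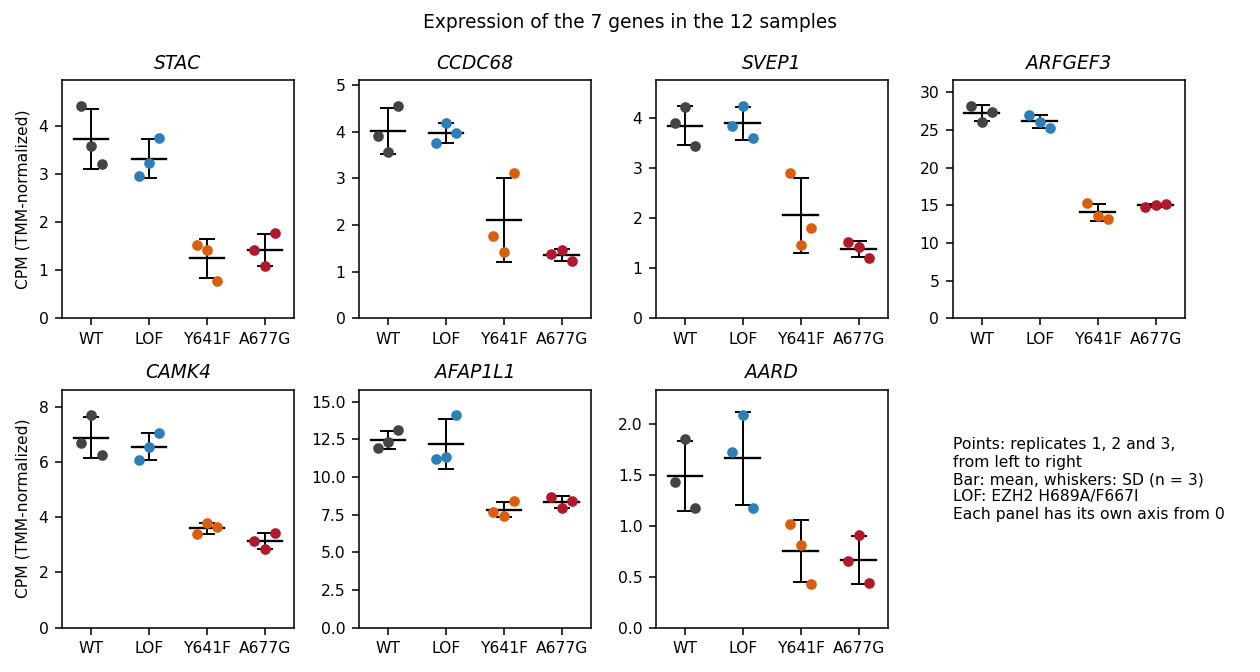
TMM-normalized CPM of the 7 genes in the 12 samples, with a panel and an axis from 0 for each gene, points for replicates and black bars for the line mean and SD (n = 3). In every panel the 6 GOF samples lie below the 6 samples of WT and LOF, by the widest relative gap in STAC and the narrowest in CCDC68.

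STAC kept the smallest share of its WT level in Y641F of the 7 genes. It encodes an adaptor with an SH3 domain that binds voltage-gated calcium channels, and lies on chromosome 3 (GRCh38, 36380503 to 36548007, plus strand, ENSG00000144681.11, 11 exons in the main transcript). STAC read 4.41, 3.57 and 3.20 CPM in WT and 2.95, 3.23 and 3.75 in LOF. In the GOF lines it read 1.52, 1.42 and 0.780 CPM in Y641F and 1.41, 1.08 and 1.76 in A677G. All GOF samples were low, Y641F replicate 3 lowest of all, and the GOF and other samples were separated by a clear gap. The mean was 33.3% of the WT mean in Y641F and 38.0% in A677G, or log2 fold changes of -1.59 (SE 0.227) and -1.40 (SE 0.223). From the lowest of the 14263 genes tested upward, these ranked 43 and 76. Genes without a count in any A677G replicate are not in these ranks. The lowest of the other samples stood 68.0% above the highest GOF sample, the widest such gap of the 7 genes.

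CAMK4, the calcium/calmodulin-dependent kinase that phosphorylates CREB in the nucleus, is the other calcium signalling gene. It spans 111223653 to 111494886 of chromosome 5 on the plus strand (ENSG00000152495.11, 11 exons). Its CPM was 6.68, 7.69 and 6.24 in WT, 6.06, 6.54 and 7.04 in LOF, 3.38, 3.78 and 3.64 in Y641F, and 3.14, 2.85 and 3.43 in A677G. The replicates of a GOF line lay close together, and no GOF sample came near the other lines, with a gap of 60.3%. What remained was 52.4% of WT in Y641F and 45.7% in A677G (log2 fold changes -0.94, SE 0.136, and -1.13, SE 0.138).

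ARFGEF3 was the most abundant by CPM and the most evenly measured. It carries a Sec7 domain like that of the factors that load GTP onto ARF GTPases, and is also known to bind the prohibitin PHB2. The gene lies at 138161939 to 138344663 of chromosome 6, plus strand (ENSG00000112379.9, 34 exons). It read 28.2, 26.1 and 27.4 CPM in WT and 27.0, 26.1 and 25.3 in LOF, against 15.3, 13.6 and 13.2 in Y641F and 14.7, 15.0 and 15.2 in A677G. The samples formed a high and a low band with 65.4% between them, and the GOF lines overlapped each other. ARFGEF3 was at 51.5% of WT in Y641F (log2 fold change -0.96, SE 0.0723) and at 55.0% in A677G (-0.86, SE 0.0719). Its biological coefficient of variation between replicates was 0.0511, the lowest of the members, and its counts ran from 517 to 1043 per sample.

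AFAP1L1, a relative of the SRC-binding actin filament protein AFAP1 found at podosomes, had the smallest difference. It lies at 149271859 to 149343637 of chromosome 5, plus strand (ENSG00000157510.14, 19 exons), on the same chromosome as CAMK4. Its CPM was 11.9, 12.3 and 13.1 in WT and 11.2, 11.3 and 14.1 in LOF, and 7.68, 7.41 and 8.42 in Y641F and 8.68, 7.91 and 8.39 in A677G. The gap between GOF and other samples was 29.0%, with LOF replicate 3 highest of all. It kept 62.9% of the WT level in Y641F and 66.9% in A677G (log2 fold changes -0.67, SE 0.103, and -0.58, SE 0.102). That ranked it 509 and 759 from the lowest of the genes tested, so "strongly lowered" describes AFAP1L1 less well than the other members.

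CCDC68, a coiled-coil protein of the subdistal appendages by which the mother centriole anchors microtubules, read less evenly in the GOF lines. It lies on the minus strand of chromosome 18, 54901509 to 54959461 (ENSG00000166510.14, 12 exons). The WT replicates read 3.92, 3.57 and 4.56 CPM and the LOF replicates 3.76, 4.18 and 3.97. A677G was uniformly low at 1.37, 1.47 and 1.23, while Y641F read 1.76, 1.42 and 3.12. Replicate 3 of Y641F thus stood near the lowest WT sample, and the gap was 14.4%, the narrowest of the 7. The line means were 52.3% of WT in Y641F (log2 fold change -0.92, SE 0.207) and 33.8% in A677G (-1.56, SE 0.219). Without that replicate, the Y641F value was -1.33, and without replicate 2, the lowest of the line, it was -0.71.

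SVEP1 encodes a large matrix protein with sushi and EGF repeats that binds the integrin of ITGA9 and ITGB1. It lies on the minus strand of chromosome 9, 110365248 to 110579880 (ENSG00000165124.19, 48 exons). SVEP1 read 3.90, 4.22 and 3.44 CPM in WT, 3.84, 4.25 and 3.60 in LOF, 2.90, 1.47 and 1.80 in Y641F and 1.53, 1.43 and 1.21 in A677G. Here replicate 1 of Y641F, the library that stood apart above, was the high one, and the gap was 18.6%. SVEP1 was at 53.4% of WT in Y641F and at 36.0% in A677G (log2 fold changes -0.90, SE 0.202, and -1.47, SE 0.212). The first value was -1.23 without replicate 1 and -0.71 without replicate 2, the lowest.

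AARD, named for an alanine- and arginine-rich domain, was the faintest and least certain member. It is a short gene of 2 exons at 116938207 to 116944487 of chromosome 8, plus strand (ENSG00000205002.4), and had only 16 to 82 counts per sample. Its CPM was 1.43, 1.86 and 1.18 in WT and 1.73, 2.09 and 1.18 in LOF, and 1.02, 0.814 and 0.426 in Y641F and 0.651, 0.909 and 0.439 in A677G. The groups did not overlap, but 15.1% separated the highest GOF sample from replicate 3 of WT and LOF. AARD stood at 50.6% of WT in Y641F (log2 fold change -0.99, SE 0.320) and 44.7% in A677G (-1.16, SE 0.325). Its coefficient of variation was 0.198, the highest of the 7.

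By the same test, 7 of 7 were lower in Y641F than in WT, where 5.59% of all genes were called lower, and 7 of 7 in A677G, where 6.48% were. Both counts are what the choice of genes sets. Where a log2 fold change of -1 or less was also asked for, only STAC was left in Y641F (1.17% of all genes) and all but ARFGEF3 and AFAP1L1 in A677G (1.42% of all genes). The median log2 fold change of the members was -0.94 in Y641F and -1.16 in A677G, against 0.00 for all genes. The count in Y641F was 6, without AARD, when replicate 1 or 2 of WT or replicate 2 or 3 of Y641F was left out. In A677G it was 6, again without AARD, when replicate 2 of WT or replicate 1 or 3 of A677G was. With replicate 1 of Y641F left out the count stayed 7, at log2 fold changes of -1.77 for STAC, -0.89 for CAMK4, -1.02 for ARFGEF3, -0.65 for AFAP1L1, -0.81 for CCDC68, -1.23 for SVEP1 and -1.28 for AARD.

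**Figure D2:**
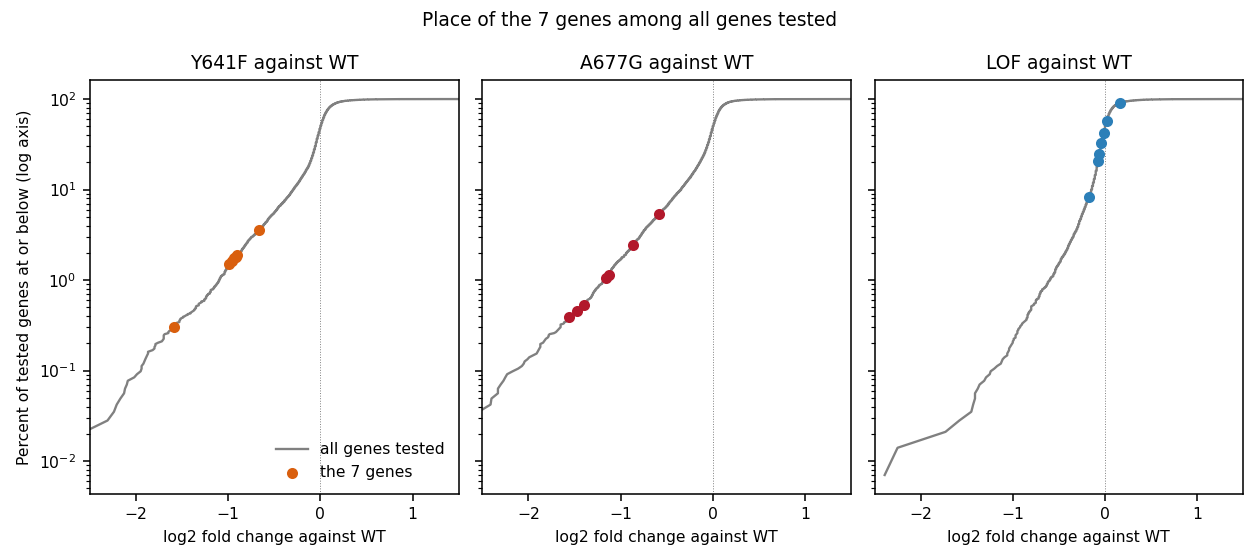
Share of the 14263 tested genes at or below a log2 fold change against WT (grey line, log axis), with the 7 genes as points, for Y641F, A677G and LOF. In the GOF panels the points run down the lower tail from AFAP1L1 to STAC or CCDC68, and in the LOF panel they lie around 0.

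Levels between genes compare only per length. Per kilobase of the main transcript, WT held most of AFAP1L1 (2.07 CPM per kb) and ARFGEF3 (1.83), then STAC (1.22), CCDC68 (0.983), AARD (0.651), CAMK4 (0.575) and SVEP1 (0.316). In A677G the order was AFAP1L1 (1.38), ARFGEF3 (1.01), STAC (0.462), CCDC68 (0.333), AARD (0.291), CAMK4 (0.263) and SVEP1 (0.114), the same order of means. In WT the replicates of STAC and CCDC68 overlapped on this scale, as did those of AARD and CAMK4, and in A677G each of STAC, CCDC68, AARD and CAMK4 overlapped the next, so the order among these genes is not resolved. All of these are low to middling transcripts, since the mean log2 CPM of ARFGEF3 stood at percentile 45.5 of tested genes and that of AARD at percentile 9.47. Added up, the CPM of the members was 59.1 to 60.5 in WT, 56.5 to 58.9 in LOF, 29.9 to 33.5 in Y641F and 30.7 to 31.7 in A677G.

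The LOF line was compared with WT to see whether these genes also differed under the LOF mutant. Because the cells' own EZH2 may remain, the comparison does not show how the genes respond to a loss of EZH2 activity. By edgeR 0 of 7 were called, against 0.301% of all genes in either direction, 0 of 7 by edgeR's exact test and 0 of 7 by DESeq2, and 0 of 7 had an unadjusted p under 0.05, against 8.30% of all genes. The LOF and WT replicates overlapped at all 7, whereas they did not overlap at 15.0% of all genes. Most genes were neither called nor apart in this contrast, so these counts do not set the members apart from other genes. WT is also the line against which the members were chosen as low, so this comparison shares those libraries with the choice. ARFGEF3 gave the tightest estimate, a log2 fold change of -0.06 with a 95% interval of -0.20 to 0.08. For AFAP1L1 it was -0.04 (-0.24 to 0.17), for CAMK4 -0.07 (-0.34 to 0.19) and for SVEP1 0.02 (-0.37 to 0.41). CCDC68 was at -0.01 (-0.41 to 0.39) and STAC at -0.17 (-0.59 to 0.24). These intervals admit modest changes either way. For these 6 genes they lay wholly above the intervals of both GOF lines. The choice of genes favoured low GOF values, so setting the LOF intervals against them is a description and no test. The interval of AARD, -0.44 to 0.76 around 0.16, was the widest. It overlapped that of Y641F (-1.64 to -0.34) and lay above that of A677G (-1.81 to -0.50). Adjusted p-values ran from 0.874 to 0.993.

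**Figure D3:**
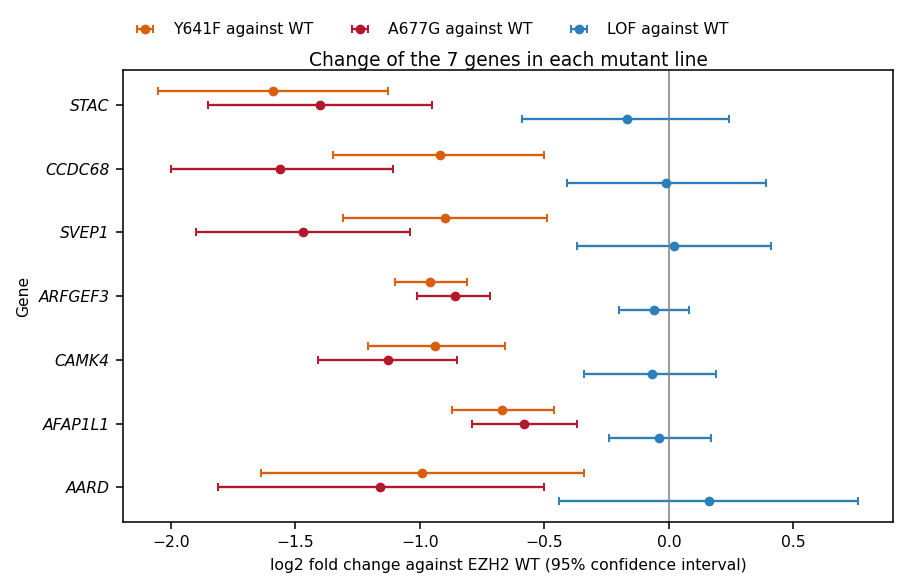
Log2 fold change of each gene against WT in Y641F, A677G and LOF, with 95% confidence intervals from the edgeR fit over 12 samples. The LOF intervals all span 0, and at AARD the LOF interval overlaps that of Y641F.

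Measured against the LOF line in place of WT, all 7 were again lower in both GOF lines, where 6.43% of all genes were lower in Y641F and 7.66% in A677G. These contrasts use the same GOF libraries and are no second test. Differences of -1 or less were left at STAC and AARD in Y641F (1.27% of all genes) and at 5 members in A677G (1.55% of all genes). The log2 differences from LOF were -1.42 and -1.23 for STAC, -0.86 and -1.06 for CAMK4, -0.90 and -0.80 for ARFGEF3, and -0.63 and -0.54 for AFAP1L1, for Y641F and A677G in turn. They were -0.91 and -1.54 for CCDC68, -0.92 and -1.49 for SVEP1, and -1.15 and -1.32 for AARD. All 6 GOF samples lay below all 6 other samples at each of the 7 genes, a pattern found at 5.41% of all genes tested.

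The GOF mutants were then compared with each other. By edgeR 0 of 7 were called, against 0.0841% of all genes in either direction, with 0 of 7 by the exact test, and the replicates of Y641F and A677G overlapped at all 7, while 10.2% of all genes did not overlap. DESeq2 gave an adjusted p only for ARFGEF3 (0.913) and AFAP1L1 (0.948), and left the other 5 without one. The contrast is not the one on which the members were chosen, but the libraries are. A choice of genes low in the GOF lines may favour genes alike in both. Most genes were neither called nor apart here, so these counts do not set the members apart. CCDC68 and SVEP1 had an unadjusted p under 0.05, as had 6.91% of all genes. CCDC68 was 0.63 higher in Y641F on the log2 scale (95% interval 0.17 to 1.10, adjusted p = 0.568), and SVEP1 0.57 higher (0.12 to 1.02, adjusted p = 0.603). Each of these differences rested on a different Y641F library. Without replicate 3 the difference at CCDC68 was 0.23, and without replicate 1 that at SVEP1 was 0.23. In Y641F minus A677G, CAMK4 differed by 0.20 (-0.10 to 0.49), ARFGEF3 by -0.09 (-0.25 to 0.06) and AFAP1L1 by -0.09 (-0.30 to 0.12). STAC, at -0.19 (-0.69 to 0.31), and AARD, at 0.17 (-0.54 to 0.87), were too variable to say more, and both changed sign with 1 library left out, STAC to 0.06 without Y641F replicate 3 and AARD to -0.13 without replicate 1.

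Within Y641F, replicate 1 was the highest at STAC, SVEP1, ARFGEF3 and AARD, replicate 2 at CAMK4, and replicate 3 at CCDC68 and AFAP1L1. After the line means were taken off, the members showed no common direction from sample to sample, with a median Pearson r of -0.09 over 21 pairs of genes (range -0.78 to 0.57, 12 samples, all genes of a sample from the same library).

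The genes share little in position. CAMK4 and AFAP1L1 are on the same chromosome and the others are each on their own. Several members are long genes. The spans of CAMK4 (271 kb), SVEP1 (215 kb), ARFGEF3 (183 kb) and STAC (168 kb) were at percentiles 94.7, 92.5, 90.5 and 89.3 of tested genes, those of AFAP1L1 (71.8 kb) and CCDC68 (58.0 kb) at percentiles 71.7 and 66.1, and that of AARD (6.28 kb) at percentile 13.6. GC content of the exons was low in CCDC68 (35.7%, percentile 2.51) and CAMK4 (37.2%, percentile 5.96) and between 45.8% and 49.6% in the others.

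The tested genes that neighbour each member were read next. Of the nearest ones on each side, 14 in all, 2 were called lower in Y641F (14.3%) and 3 in A677G (21.4%). Of all genes, 5.59% and 6.48% were called lower. The counts are too small to set the neighbours apart, and these genes lie up to 2582 kb from the member. In LOF edgeR called 0 of the 14, DESeq2 0, and 1 had an unadjusted p under 0.05. Distances are between the lower coordinates of the genes. RAB27B, a GTPase of vesicle secretion 184 kb before CCDC68, was lower by a log2 fold change of -0.92 (SE 0.215, adjusted p = 0.00429) and -0.85 (SE 0.214, adjusted p = 0.00728) in Y641F and A677G. LPAR1, a receptor for lysophosphatidic acid 508 kb after SVEP1, was lower, at -0.76 (SE 0.112, adjusted p = 8.16e-06) and -0.64 (SE 0.111, adjusted p = 1.03e-04). ABLIM3, an actin-binding LIM protein 130 kb before AFAP1L1 with a mean log2 CPM of -1.03, was called only in A677G, at -2.27 (SE 0.448, adjusted p = 5.41e-04) against -0.86 (adjusted p = 0.189). The difference between the GOF lines, 1.41 on the log2 scale (SE 0.482), was not called (adjusted p = 0.514).

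The other nearest genes were not called. On the far side of CCDC68, TCF4, a transcription factor, was at 0.03 and -0.01 in Y641F and A677G. Next to SVEP1, 121 kb before it, TXN (thioredoxin) was at -0.07 and -0.03. PERP and HEBP2, 73.4 kb before and 242 kb after ARFGEF3, lay at -0.07 and -0.10, and at 0.02 and 0.00. Around CAMK4, WDR36 read -0.02 in both lines and STARD4 0.03 and 0.04, and after AFAP1L1, GRPEL2 read -0.04 and -0.02. For STAC, PDCD6IP, 2582 kb before it, was at 0.07 and 0.08. SLC30A8, a zinc transporter 12.1 kb after AARD, had -0.12 (SE 0.377) and -0.16 (SE 0.379), and RAD21-AS1, 63.8 kb before it, 0.12 (SE 0.365) and -0.22 (SE 0.377), which at these errors says little. Among the second nearest, the cytokine gene TSLP, 154 kb before CAMK4 (-1.12, adjusted p = 0.00625, and -0.96, adjusted p = 0.0177), and PALM2, 867 kb before SVEP1 (-1.09, adjusted p = 4.41e-04, and -0.83, adjusted p = 0.00637), were lower. LRRFIP2, 672 kb after STAC, was higher by 0.17 in both (adjusted p = 0.0455 and 0.0431). Over all 28 neighbours, 4 were called lower in Y641F (14.3%) and 5 in A677G (17.9%), and 1 was called higher in each line. Their median was -0.03 and -0.04, beside 0.00 for all genes.

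**Figure D4:**
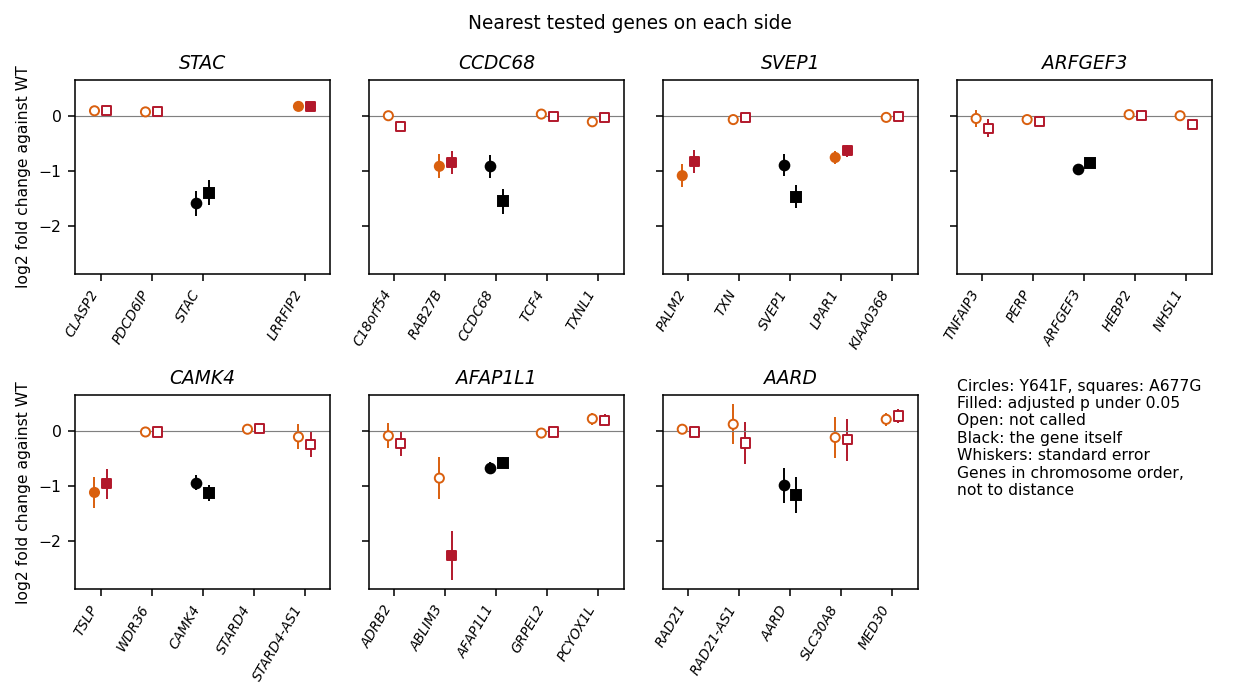
Log2 fold change against WT of each gene (black) and of the 2 nearest tested genes on each side (circles Y641F, squares A677G, filled where the adjusted p was under 0.05), with standard errors, in chromosome order and not to distance. A neighbour of STAC is not shown. Most neighbours lie near 0, and RAB27B, PALM2, LPAR1, TSLP and, in A677G, ABLIM3 lie well below it.

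Genes of the same families and pathways were followed from lists drawn up from the members' known roles. Of 14 tested genes for the other STAC proteins and voltage-gated calcium channel subunits, edgeR called 0 in either GOF line, at medians of -0.05 in Y641F and -0.08 in A677G. Unadjusted p-values were under 0.05 for 3 and 2 of them, the exact test called 1 and 0, and DESeq2 0 and 0. Of 18 Sec7 factors, ARF GTPases and PHB2, the list of ARFGEF3, 0 were called, with 3 and 3 at an unadjusted p under 0.05, 0 and 1 by the exact test and 0 and 0 by DESeq2. Of 11 subdistal appendage proteins, the list of CCDC68, 0 were called, with 1 and 3 at an unadjusted p under 0.05, 0 and 0 by the exact test and 0 and 1 by DESeq2. The list of CAMK4 held genes in both directions. Among 28 genes of calmodulin, its kinases and CREB factors, 2 were called lower in each GOF line, and 2 (CAMK1 and CAMK2D) were called higher in Y641F, by 0.20 and 0.19, and 0 in A677G, at medians of -0.00 and 0.02. CAMK1 and CAMK2D differed by 0.08 and 0.06 between the GOF lines (adjusted p = 0.850 and 0.886). CAMK2N1, an inhibitor of CaM kinase II, was lower, at -0.92 (SE 0.174, adjusted p = 3.75e-04) in Y641F and -0.77 (SE 0.172, adjusted p = 0.00239) in A677G. CAMK1D, a kinase of the CaM kinase I group, was lower, at -0.47 (SE 0.0989, adjusted p = 0.00132) and -0.42 (SE 0.0987, adjusted p = 0.00378).

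In the list of AFAP relatives, SRC and podosome proteins, 1 of 13 was lower in Y641F and 2 in A677G (medians 0.02 and -0.01). WIPF1, which binds WASP proteins at podosomes, was the gene lower in both, at -0.37 (adjusted p = 0.00998) and -0.33 (adjusted p = 0.0232). TNS1, a tensin of focal adhesions, was called in A677G at -1.13 (adjusted p = 3.72e-04) and stood at -0.46 in Y641F (adjusted p = 0.195), a difference of 0.67 that was not called (adjusted p = 0.487). SVEP1's list of partners and other sushi-domain proteins had 1 of 11 lower in Y641F and 2 in A677G (medians -0.00 and -0.16). SRPX, a sushi-repeat protein, was lower, at -0.90 (SE 0.156, adjusted p = 1.17e-04) and -1.14 (SE 0.159, adjusted p = 3.31e-06). It went from 5.38 ± 0.635 CPM (SD, n = 3) in WT to 2.90 ± 0.145 and 2.44 ± 0.314. ITGA9, the SVEP1 receptor subunit, was called in A677G at -1.09 (SE 0.284, adjusted p = 0.0100), while in Y641F it was at -0.39 (SE 0.268, adjusted p = 0.475), a difference of 0.70 between them that was not called (adjusted p = 0.648). These counts stand beside 5.59% and 6.48% of all genes called lower and 2.09% and 2.07% called higher, and they are too small to set the lists apart. In LOF, edgeR and DESeq2 called 0 genes of these 6 lists, and between 0 and 3 genes a list had an unadjusted p under 0.05.

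Of 13 PRC2 genes tested, 2 were lower and 1 higher in each GOF line, against the same shares of all genes, 5.59% and 6.48% lower and 2.09% and 2.07% higher. EZH2 was the gene that was higher, also the only gene of the list called in LOF, where 0.301% of all genes were called. C17orf96, an older symbol of EPOP, which tunes PRC2 at its targets, was lower, at -0.47 (SE 0.0633, adjusted p = 1.77e-06) and -0.40 (SE 0.0631, adjusted p = 2.61e-05). RBBP7, a histone-binding subunit, was lower, at -0.10 (adjusted p = 0.0484) and -0.12 (adjusted p = 0.0151). EZH1, the paralogue that can take the place of EZH2, was at 0.12 (adjusted p = 0.468) and -0.01 (adjusted p = 0.972).

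The genes whose log2 CPM followed a member most closely over the 12 samples were found by Pearson's r among 12040 genes whose mean log2 CPM reached 1. The samples fall into a GOF and another cluster, so r mostly reads that step, and no p is given. STAC was followed by PPP1R1A and B4GALNT1 (r = 0.98) and JAKMIP1 (0.97), and PPP1R1A, an inhibitor of protein phosphatase 1, differed from WT by -1.24 and -1.12 in Y641F and A677G. CAMK4 was followed by BARX2, BEX1 and RIMS4 (all 0.98) and ARFGEF3 by DDAH1, HLA-B and KCTD12 (all 0.98). For AFAP1L1 these were UBE2QL1 (0.98), ELOVL7 (0.97) and ENC1 (0.96). CCDC68 and SVEP1, whose means were higher in Y641F than in A677G, were nearest to genes with means in that order too, CCDC68 to FBN2 and EFR3B (0.96) and KIAA1644 (0.95), and SVEP1 to LMO7 (0.99), IL12RB2 (0.98) and ACSL4 (0.97). LMO7, for example, was at -0.21 in Y641F and -0.37 in A677G. AARD was nearest to FAM110B (0.96), MOB3B and KALRN (0.94). No member was among the 3 nearest genes of another. AARD could not be, since its mean log2 CPM of 0.11 left it out of the genes searched.

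**Figure D5:**
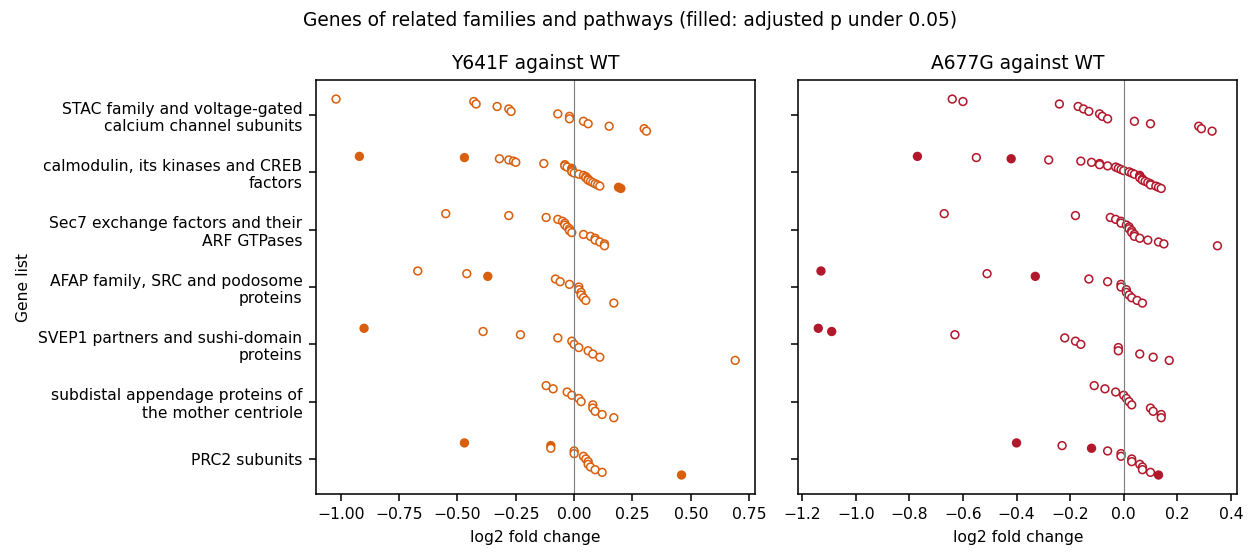
Log2 fold change against WT of every tested gene of 7 lists of related genes, in Y641F and A677G, filled where the adjusted p was under 0.05. Most genes lie near 0 and are open, and CAMK2N1, CAMK1D, WIPF1, SRPX and C17orf96 are filled and low in both panels.

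Base composition of the starts was read from windows of 300 bases, of which 250 lie before the start, for 5 of the 7 members and 10962 tested genes. Because SVEP1 and AARD had no window, no statement over the 7 is made. The ratio of observed to expected CpGs was 1.07 at AFAP1L1, 1.00 at ARFGEF3, 0.93 at CAMK4, 0.87 at CCDC68 and 0.77 at STAC, beside a median of 0.85 over all windows. AFAP1L1 had the highest ratio (percentile 91.9) and STAC the lowest (percentile 32.0) of these 5. GC content was 60.7% at CCDC68 and between 74.3% and 81.0% at the rest, where the median window had 66.5%. Over the 477 windows of genes lower in both GOF lines, the median GC content was 70.0% and the median CpG ratio 0.83. Of the motifs searched on both strands, the GC box GGGCGG was in 5 of 5 windows and in 74.0% of all, and TATAAA in that of CCDC68 and in 5.17% of all. The cyclic AMP response element TGACGTCA was in 0 of 5 (3.50% of all) and the E box CACGTG in 0 of 5 (10.3% of all).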

How the data were processed

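Total RNA of 4 HEK293T lines, 3 replicates each, was sequenced from stranded poly(A) libraries. Per the study's methods and the submitters' processing notes, the authors trimmed reads with Trim Galore 0.6.5, aligned them to GRCh38 with STAR 2.7.9a and estimated abundance with Salmon 1.2.0. The deposited values are raw counts per gene symbol, without normalization, and the step from Salmon to counts is not given in the sources used here.

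Of 14438 genes, 175 without a count in any replicate of A677G, or of LOF, were left out. Counts were TMM-normalized and fitted with edgeR 4.0.16 (quasi-likelihood test, R 4.3.3) on all 12 samples with 1 coefficient per line, with Benjamini-Hochberg adjustment over 14263 genes and calls at an adjusted p under 0.05. The authors' exact test was run as an alternative. Log2 CPM used a prior count of 2. Depth was 32137700 to 44562413 counts, so the faintest members carry the widest errors. Identifiers came from GENCODE on GRCh38, and 13272 symbols matched by name, 809 by an older symbol and 357 not at all. Genes overlapping a member had no row in the table.

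The members, lists, markers and tests were chosen with earlier results of these data known. Named genes are the members, EZH2, the nearest tested gene on each side and the second nearest if called in a GOF line, the 3 most correlated genes, list genes called alike in both GOF lines or in LOF, and the 5 lowest of the other genes at or below both medians of the members. CAMK1, CAMK2D, TNS1, ITGA9, EZH1 and the markers were named besides, after their values were seen. Alternatives were upper-quartile factors, library totals, DESeq2 1.42.0, other filters, only the compared lines, a replicate block, removal of the GC trend, a fold threshold and each replicate left out. The results of 1 neighbouring gene and of 1 marker are not reported here. The fits were checked on simulated counts with set changes, but the outcome is not given here and supports no result.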

Additional observations from a re-analysis of the deposited data

How the results depend on the processing

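With a log2 fold change of at least 1 required, 1 of the 7 genes was called lower in Y641F than in WT and 2 than in LOF, in place of 7, and over all genes 167 in place of 797 were lower in Y641F than in WT and 202 in place of 924 in A677G. The counts of members against WT and LOF were otherwise 5 to 7, with AARD lost to library totals and to a fit of only the compared lines in Y641F (6 in each). Leaving out a replicate gave 6 to 7 for each GOF line against WT and LOF, and 0 for LOF against WT and for Y641F against A677G. AARD was the gene lost, with adjusted p up to 0.268 in Y641F and 0.136 in A677G against WT and 16 to 82 counts a sample. Replicate numbers did not pair the samples (correlations of same-numbered samples -0.10 to 0.13, 9 of 36 best with their own number), and the replicate block changed no call of a member, with 7, 7, 0, 0, 7 and 7. Over all genes, calls in either direction in LOF numbered 169 in place of 43 with the 175 genes at 0 kept, 75 by the exact test, 86 in a fit of only the compared lines and 11 to 65 with a library left out, and with library totals 20 were lower and 11 higher in place of 23 and 20. Between the GOF lines they numbered 178, 23 by the exact test, 19 by DESeq2 among the 9838 genes to which it gave an adjusted p and 8 to 57 in place of 12, and leaving out a library gave 703 to 1232 in place of 1095 for Y641F against WT. With the 175 genes at 0 kept, 1082 genes were lower in A677G than in WT in place of 924, and 793 in place of 797 in Y641F. CpG ratios moved to 0.75 to 1.09 when only bases before the start were used.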

Other observations

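The members were not the genes lowest in the GOF lines. Among 12040 genes whose mean log2 CPM reached 1, 18 other genes stood at or below the median of the members in both GOF lines, as did 1 member, STAC. By the mean of both GOF lines, the lowest were TENM4, a teneurin of neuronal adhesion (-1.32 in Y641F, -1.53 in A677G and -0.27 in LOF), ADCYAP1R1, the receptor of the neuropeptide PACAP (-1.32, -1.32 and 0.12), CYP2J2, an epoxygenase of arachidonic acid (-1.19, -1.39 and 0.14), SLC9A2, a sodium/proton exchanger (-1.16, -1.41 and 0.14), and SPOCK3, a matrix proteoglycan (-1.22, -1.32 and -0.40). Like the members, these were found by their GOF values, which are therefore a description.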
